A study of Danio rerio with 16 samples.

Results

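Gene expression in dissected eyes was compared between zebrafish larvae exposed to phenol isopropylated phosphate (IPP) and larvae that received the vehicle alone. IPP is a mixture of triaryl phosphate esters that serves as plasticizer and flame retardant. The series concerns deficits of the larval photomotor response after IPP. Genes were included when their FPKM averaged 0.5 or more across the 8 eye libraries, which gave 17096 of the 31901 gene identifiers in the eye table. FPKM is the number of sequenced fragments of a gene scaled to its length and to the depth of the library. The IPP eyes came from wildtype larvae kept in 0.2 uM IPP, with 0.02% dimethyl sulfoxide (DMSO) as the solvent, between 6 and 120 hours post fertilization (hpf). The DMSO eyes came from wildtype larvae kept in 0.02% DMSO over the same time. Each group held 4 libraries, and the brains of larvae of the same exposure, again 4 libraries per group, served only to ask whether an effect differed between the tissues. The labels give no strain, and they do not say how many eyes went into a library or whether the libraries of a group came from separate clutches. The p-values therefore measure the spread between these libraries, which may be technical.

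In the retina, rods and cones turn light into a change of transmitter release, bipolar cells pass it on, and ganglion cells carry it to the brain along axons that form the optic nerve. Horizontal and amacrine cells adjust the signal on the way, Mueller glia support the neurons, and the pigment epithelium behind the photoreceptors regenerates the chromophore that light has used. At this larval age the eye already drives visual behaviour, and the movement that larvae make after a change of light is a common readout for neuroactive chemicals.

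The eye libraries held 10.6 M to 12.5 M reads assigned to genes, rebuilt from FPKM and gene length. The genes that define an eye were abundant in all of them. The rod opsin gene rho had 4165, 4243, 4209.8 and 4959 FPKM in IPP eyes, against 4621, 5434, 5034 and 3313 FPKM in DMSO eyes. The lens crystallin gene cryaa had 233, 276, 283 and 303 FPKM in IPP eyes, against 294, 292, 366 and 259 FPKM in DMSO eyes. Values are given here and below in the order of libraries 1 to 4. A list of 25 tested genes of brain regions outside the eye summed to 72.1 to 105 FPKM in IPP eyes and to 86.2 to 95.8 FPKM in DMSO eyes. On the first principal component, which held 27.0% of the variance, the IPP eyes lay at -19.2, -19.6, -23.3 and -15.8 and the DMSO eyes at 20.7, 35.1, 39.4 and -17.2. DMSO library 4 thus lay among the IPP libraries. It was kept in the group its label gives, whether that label is right was not tested, and every DMSO mean and count below rests on it unless it is named as left out. IPP library 4 stood apart on the second component, at -45.5, and IPP libraries 3 and 4 were high in activity and inflammation genes, as given below.

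No gene passed the test. Of the 17096 genes, 0 were called by limma at a Benjamini-Hochberg adjusted p under 0.05 (0% of genes tested, in either direction), and the smallest adjusted p was 0.189, shared by 14 genes. By limma-voom on the rebuilt reads 0 were called as well, with 1891 at an unadjusted p under 0.05. At an unadjusted p under 0.05 there were 1886 genes (11.0%), 906 of them higher in IPP eyes (5.30%) and 980 lower (5.73%). The groups did not overlap for 380 genes that lay higher (2.22%) and for 605 that lay lower (3.54%). These shares are the background against which counts over gene lists are read below. The lists were chosen with earlier results of these data known, so a share above the background may partly come from that choice. Fold changes are given as log2 of IPP over DMSO after adding 0.5 to each FPKM, and they had a median of -0.0037 over all genes, with 8459 above 0 (49.5%) and 8637 below 0 (50.5%). The count of higher genes at this unadjusted p was 567 without DMSO library 2, 593 without DMSO library 3 and 1648 without DMSO library 4. Without DMSO library 4, 3 genes were called by limma, and the ganglion cell gene irx4a was the 1 that lay lower. Without both DMSO library 4 and IPP library 4, 40 genes were called, 8 of them lower and 32 higher. Leaving out the DMSO library that lay among the IPP libraries widens the gap between the groups. These choices were made with the values known, so the added calls are not separate evidence. Among the genes at an unadjusted p under 0.05, DMSO library 4 was the DMSO library nearest to the IPP values for 576 of the 980 lower genes (58.8%) and for 599 of the 906 higher genes (66.1%).

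**Figure D1:**
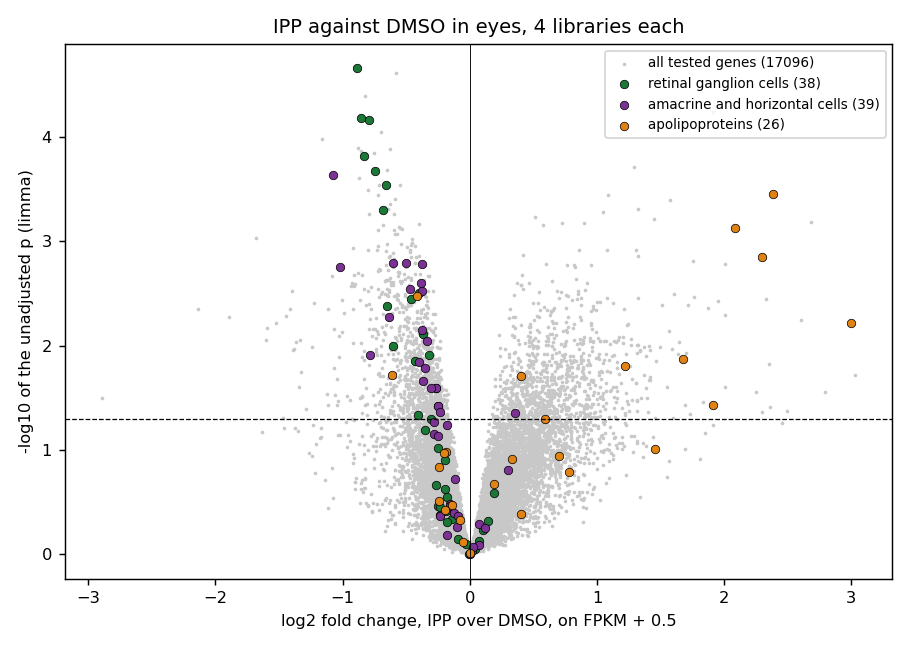
Each of the 17096 genes tested is a point placed by its log2 fold change of IPP over DMSO eyes (horizontal axis) and by -log10 of its unadjusted limma p (vertical axis), with a dashed line at 0.05 and colours for the members of 3 gene lists. Most ganglion cell genes and amacrine and horizontal cell genes with small p lie left of 0, with irx4a at the top at -0.89, and the apolipoprotein genes reach the far right, with apoa1a at 2.99.

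Genes of retinal ganglion cells lay lower in IPP eyes. The list had 38 tested members, 32 of them lower and 6 higher, and their median log2 fold change was -0.25. At an unadjusted p under 0.05, 16 lay lower (42.1%) and 0 higher, and for 12 (31.6%) all IPP libraries lay below all DMSO libraries. In a bulk sample, fewer cells of a type and less RNA per cell cannot be told apart. The list's summed level was 587 to 666 FPKM in IPP eyes and 760.3 to 954 FPKM in DMSO eyes. Abundant members weigh most in such a sum. The list's mean log2 level relative to the 8 libraries was -0.17, -0.0089, -0.29 and -0.16 in IPP eyes. It was 0.21, 0.27, 0.13 and 0.015 in DMSO eyes, so IPP library 2 and DMSO library 4 lay close together. Of the list's 16 genes at p under 0.05, 13 had DMSO library 4 as the lowest DMSO library. Without IPP libraries 3 and 4 the count of lower members at this p was 11 and the median -0.24. With fewer libraries a small p is harder to reach. Without DMSO library 4 and IPP library 4 the count was 18 and the median -0.27.

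The smallest p of all genes tested belonged to irx4a, which encodes an Iroquois homeobox transcription factor (ENSDARG00000035648, chromosome 16, 378766 to 383664, minus strand, protein-coding). It had 12.2, 12.7, 11.11 and 14.3 FPKM in IPP eyes, against 25.4, 25.4, 24.8 and 19.5 FPKM in DMSO eyes. The IPP libraries lay within a narrow range, DMSO library 4 was the lowest of its group, and the groups did not overlap. The log2 fold change was -0.89 (SE 0.12, limma, unadjusted p = 2.21e-05, Benjamini-Hochberg adjusted p = 0.189). The LIM homeobox gene isl2b, a marker of ganglion cells in zebrafish (chromosome 7, 29992889 to 29997444), had 35.0, 28.8, 28.5 and 29.7 FPKM in IPP eyes, against 51.3, 65.5, 52.4 and 45.3 FPKM in DMSO eyes. IPP library 1 was the highest of its group and still lay below all DMSO libraries. Its log2 fold change was -0.80 (SE 0.12, limma adjusted p = 0.189). The POU homeobox gene pou4f1, a regulator of ganglion cell differentiation (chromosome 6, 4539953 to 4543005), had 9.35, 12.3, 9.03 and 12.2 FPKM in IPP eyes, against 21.0, 21.0, 19.7 and 15.9 FPKM in DMSO eyes. Its log2 fold change was -0.83 (SE 0.14, limma adjusted p = 0.189), and DMSO library 4 again lay nearest to the IPP eyes. The stathmin gene stmn4, whose product regulates microtubules in neurons (chromosome 20, 34773646 to 34868814), had 24.7, 19.6, 16.3 and 19.98 FPKM in IPP eyes, against 38.2, 38.6, 38.2 and 31.4 FPKM in DMSO eyes. All IPP libraries lay below all DMSO libraries (-0.86, SE 0.13, limma adjusted p = 0.189). The stmn4 locus overlaps 3 annotated genes of the opposite strand, and since the use of strand in counting is unclear from the labels, reads from them cannot be told apart. The same holds for pou4f3, kcnip3b, six3a, gria1b, cacng2a, chrnb3b, ache, opn1sw2, gnat2, crx, pcdh15b, cacnb2b, irx5a, cavin1b, rxrba, apobb.1, apoea, dgat1b, elovl2, fosab and socs2 below, which overlap genes of the opposite strand. The genes vsnl1a, gria4a, grm4, kcnd1, kcnn3, rlbp1b, apoa4b.2, ldlra, pparda and ncapd2 overlap genes of their own strand, and reads there may be split between them.

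Further members were looked up by family after these values were seen. All 3 tested pou4f genes lay lower, with -0.68 for pou4f2 and -0.65 for pou4f3 on the log2 scale. Of 11 tested irx genes 9 lay lower, and 4 of them had an unadjusted p under 0.05. The irx1a gene had 6.62, 8.81, 6.28 and 7.48 FPKM in IPP eyes, against 12.4, 13.2, 13.8 and 10.7 FPKM in DMSO eyes, without overlap (-0.75). The RNA-binding protein genes rbpms2b and rbpms2a, markers of ganglion cells, differed by -0.66 (SE 0.12) and -0.46 (SE 0.12) on the log2 scale, while rbpms differed by 0.076. Of 7 tested stathmin genes 6 lay lower, and stmn3, with 2.97, 2.09, 1.3001 and 2.57 FPKM in IPP eyes, against 5.15, 4.72, 4.89 and 3.42 FPKM in DMSO eyes, had the lowest log2 fold change of them (-0.91). The progenitor factor atoh7, chosen in the same way and needed for the birth of ganglion cells, had 18.2, 16.8, 18.8 and 15.8 FPKM in IPP eyes, against 21.8, 21.3, 20.8 and 16.2 FPKM in DMSO eyes, and these ranges overlapped (-0.19, SE 0.11, limma adjusted p = 0.545).

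**Figure D2:**
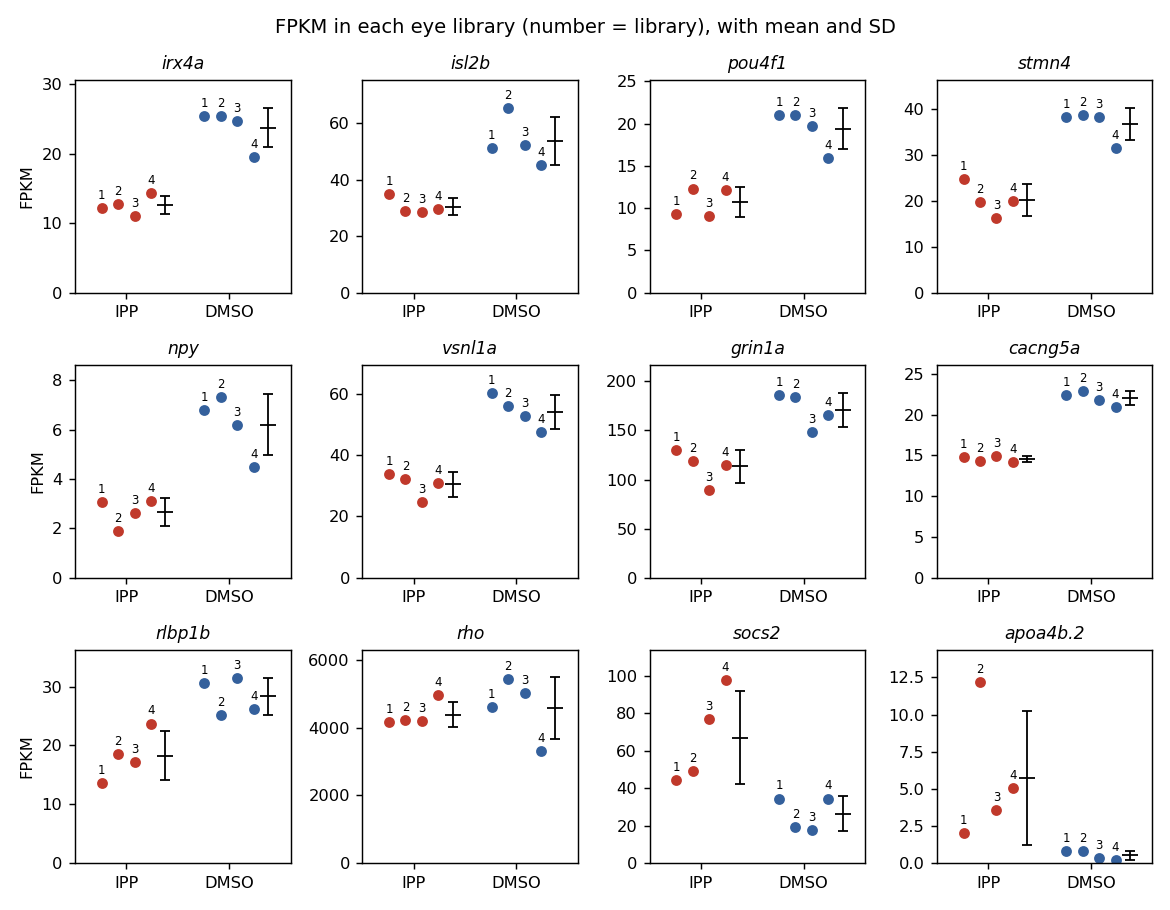
FPKM of 12 genes in each eye library, IPP left and DMSO right, with the library number beside each point and the mean and SD (n = 4) as a bar; each axis starts at 0. In the 8 genes of the upper 2 rows all IPP libraries lie below all DMSO libraries, rho overlaps, and apoa4b.2 is carried highest by IPP library 2 at 12.2 FPKM.

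The interneurons that shape the signal within the retina showed a similar set of values. Of 39 tested amacrine and horizontal cell genes, 33 lay lower and 6 higher, and their median log2 fold change was -0.26. At an unadjusted p under 0.05, 20 lay lower (51.3%) and 1 higher, and the groups did not overlap for 12 that lay lower. Without IPP libraries 3 and 4 the lower count was 13 and the median -0.26. The neuropeptide gene npy (chromosome 19, 20110699 to 20114149) had 3.08, 1.90, 2.63 and 3.12 FPKM in IPP eyes, against 6.79, 7.32, 6.21 and 4.48 FPKM in DMSO eyes. The groups did not overlap, with DMSO library 4 the lowest of its group (-1.07, SE 0.19, limma adjusted p = 0.223). The acetylcholine vesicle transporter gene slc18a3a, which starburst amacrine cells use, had 30.9, 28.2, 24.3 and 28.1 FPKM in IPP eyes, against 40.5, 47.0, 36.9 and 34.3 FPKM in DMSO eyes, also without overlap (-0.50, SE 0.12). The nuclear receptor gene nr4a2a had 8.68, 9.16, 7.02 and 6.23 FPKM in IPP eyes, against 13.3, 12.2, 12.2 and 10.3 FPKM in DMSO eyes (-0.61). The peptide gene vip had 35.1, 30.4, 36.5 and 35.5 FPKM in IPP eyes, against 44.7, 48.53, 44.7 and 41.3 FPKM in DMSO eyes (-0.38), a smaller difference with little spread in either group. The homeobox gene pax6a, which amacrine and ganglion cells keep on in the mature retina, had 138, 118, 124 and 133 FPKM in IPP eyes, against 166, 186, 173 and 143 FPKM in DMSO eyes (-0.37, SE 0.095, limma adjusted p = 0.303). The gene gad1b, for a GABA-synthesizing enzyme, had 126, 103, 110.4 and 122 FPKM in IPP eyes, against 149.7, 155, 129 and 124 FPKM in DMSO eyes, and here IPP library 1 reached above DMSO library 4 (-0.27, SE 0.10). The exception at a small p was ptf1a, a factor that sets amacrine and horizontal cell fate and was named after its value was seen, which lay higher (0.36, SE 0.15, limma adjusted p = 0.441).

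Among 31 tested neuropeptide genes and their processing enzymes, 24 lay lower, with a median of -0.21, 4 of them at an unadjusted p under 0.05 (12.9%). The list shares 4 genes with the amacrine and horizontal cell list, npy, vip, tac1 and sst1.1. The substance P precursor gene tac1 had 3.75, 3.75, 3.65 and 3.97 FPKM in IPP eyes, against 8.14, 4.32, 7.03 and 5.68 FPKM in DMSO eyes, with the IPP libraries nearly equal and below all DMSO libraries (-0.63, SE 0.18). The granin gene scg3 overlapped between the groups (-0.36). The lowest changes of any gene with a symbol, a mean of at least 1 FPKM and groups that did not overlap were those of the urocortin gene ucn3l (-1.39, SE 0.44), kcnip3b, the membrane protein gene tmem72 (-1.12, SE 0.44), npy and the reprimo gene rprma (-1.02, SE 0.24). The ucn3l gene was low, with 1.35, 0.341, 0 and 1.89 FPKM in IPP eyes, against 1.95, 3.03, 2.92 and 2.43 FPKM in DMSO eyes. The rprma gene had 5.30, 4.995, 2.96 and 2.12 FPKM in IPP eyes, against 8.39, 7.34, 8.18 and 7.63 FPKM in DMSO eyes, and the DMSO libraries were close to each other.

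Genes common to mature neurons lay lower as well. Of 52 tested members, 43 lay lower (median -0.26), 27 of them at an unadjusted p under 0.05 (51.9%), against 2 higher. Without IPP libraries 3 and 4 the lower count was 15 and the median -0.19. In the list's mean log2 level relative to the 8 libraries, the groups nearly met at IPP library 2 (-0.00049) and DMSO library 4 (0.014). The list shares 7 genes with the ganglion cell list. The calcium sensor gene vsnl1a (chromosome 20, 35382482 to 35429737) had 33.97, 32.2, 24.6 and 30.9 FPKM in IPP eyes, against 60.2, 55.9, 52.7 and 47.4 FPKM in DMSO eyes. The DMSO values were above all IPP values (-0.82, SE 0.12, limma adjusted p = 0.189), and the locus overlaps 2 annotated genes of its own strand. Its relatives were divided. Of 7 tested vsnl, hpca and ncald genes, looked up afterwards, 4 lay lower and 3 higher (median -0.032), with hpcal1 at 0.55. The neurogranin gene nrgna, whose product binds calmodulin at synapses, had 80.8, 66.3, 62.7 and 61.2 FPKM in IPP eyes, against 111, 109.6, 104 and 94.0 FPKM in DMSO eyes (-0.63, SE 0.10, limma adjusted p = 0.189). The splicing regulator gene rbfox1 had 27.7, 29.2, 26.2 and 29.4 FPKM in IPP eyes, against 42.4, 42.5, 36.8 and 33.6 FPKM in DMSO eyes (-0.45). The 12 genes with the smallest p among those lower also held exosc3, an RNA exosome subunit gene, tmem196b, a membrane protein gene, and six3a, a homeobox gene of the eye field. The exosc3 gene on the unplaced scaffold KN150491.1 had 9.07, 9.17, 8.20 and 7.004 FPKM in IPP eyes, against 13.6, 14.8, 13.8 and 13.1 FPKM in DMSO eyes (-0.70, SE 0.11). The six3a gene had 15.3, 15.4, 12.5 and 13.5 FPKM in IPP eyes, against 27.08, 24.5, 26.4 and 19.4 FPKM in DMSO eyes (-0.75, SE 0.12), and tmem196b differed by -0.88 (SE 0.14). Each of these 3 genes had groups that did not overlap and a limma adjusted p of 0.189.

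**Figure D3:**
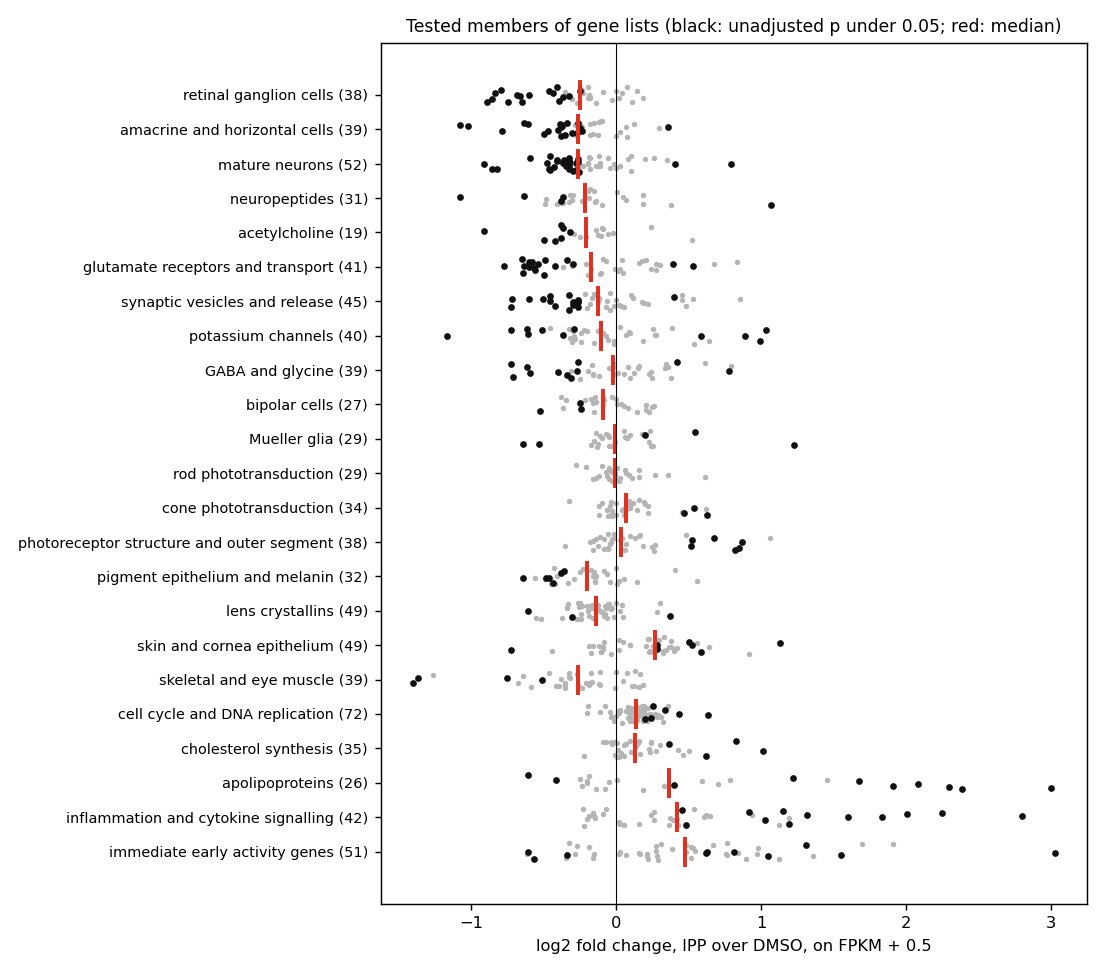
Log2 fold change of IPP over DMSO for each tested member of 23 gene lists (number of members in parentheses), with black points at an unadjusted limma p under 0.05 and a red bar at the list median. The black points lie almost all left of 0 for ganglion cells (16 of 16), amacrine and horizontal cells (20 of 21) and mature neurons (27 of 29), and right of 0 for inflammation (12 of 12).

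Receptors for glutamate, the transmitter of photoreceptors, bipolar and ganglion cells, lay lower in IPP eyes in most cases. Of 41 tested genes of glutamate receptors and transport, 26 lay lower (median -0.17), 15 of them at an unadjusted p under 0.05 (36.6%), against 2 higher. The lower count was 9 and the median -0.17 without IPP libraries 3 and 4. The list's mean log2 level relative to the 8 libraries ran from -0.17 to 0.080 in IPP eyes. DMSO library 3, at -0.10, lay within that range, and the other DMSO libraries lay above it. The grin and gria families were looked up after values of these data were seen. All 7 tested grin genes, which encode NMDA receptor subunits, had a log2 fold change below 0, between -0.60 and -0.090, and 2 of them had p under 0.05. The obligate subunit gene grin1a had 129.8, 118.9, 89.3 and 115 FPKM in IPP eyes, against 186, 184, 148 and 165 FPKM in DMSO eyes. IPP library 3 was the lowest, and the groups did not overlap (-0.60, SE 0.12, limma adjusted p = 0.274). Of 7 tested gria genes, for AMPA receptor subunits, 6 lay lower and all 6 had p under 0.05. Among them gria4a had 14.4, 14.1, 10.9 and 14.3 FPKM in IPP eyes, against 21.2, 24.8, 19.5 and 17.1 FPKM in DMSO eyes (-0.60, SE 0.13), a locus that overlaps 4 others of its strand. The exception, gria1b, named after its value was seen, differed by 0.28 (SE 0.23). The metabotropic receptor genes grm4 and grm1a differed by -0.64 (SE 0.15) and -0.56 (SE 0.13), both without overlap.

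The cacng genes, most of which encode auxiliary subunits of AMPA receptors, lay lower in most cases too. This family was looked up after the value of cacng5a was seen. Of 12 tested, 9 lay lower, 6 at an unadjusted p under 0.05, cacng5a among them, against 1 higher. Over all genes tested, 5.73% lay lower at this p. The second smallest p of all genes belonged to cacng5a (chromosome 6, 21395051 to 21455822), which had 14.8, 14.3, 14.9 and 14.2 FPKM in IPP eyes, against 22.5, 22.9, 21.8 and 20.9 FPKM in DMSO eyes. The SD was 0.351 FPKM over the IPP libraries and 0.865 FPKM over the DMSO libraries (n = 4 each), small beside the difference of the means (-0.58, SE 0.078, limma adjusted p = 0.189). The cacng3b gene had 13.8, 16.2, 14.1 and 17.9 FPKM in IPP eyes, against 25.1, 28.4, 25.2 and 18.5 FPKM in DMSO eyes, with DMSO library 4 just above the highest IPP library (-0.62, SE 0.14). The cacng8b and cacng2a genes differed by -0.51 (SE 0.12) and -0.55 (SE 0.15). Named after its value was seen, cacng4b lay the other way (0.77) at a DMSO mean of 0.273 FPKM. The whole list of sodium and calcium channel genes, which holds part of the cacng genes, had 16 of 39 lower and 23 higher (median 0.040), while at an unadjusted p under 0.05 it had 7 that lay lower (17.9%) and 3 that lay higher.

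Genes of inhibitory signalling were divided. Of 39 tested GABA and glycine genes 21 lay lower and 18 higher (median -0.021). At an unadjusted p under 0.05 there were 9 lower (23.1%) and 2 higher (5.13%). This list shares 5 genes with the amacrine and horizontal cell list. The scaffold that anchors inhibitory receptors is encoded by gphnb and gphna. The gphnb gene had 19.02, 23.3, 15.7 and 24.02 FPKM in IPP eyes, against 32.2, 36.9, 30.7 and 26.1 FPKM in DMSO eyes (-0.62, SE 0.15), and gphna differed by -0.31 (SE 0.10), both without overlap. The collybistin gene arhgef9a, whose product brings gephyrin to the membrane, had 25.1, 17.0, 13.1 and 24.8 FPKM in IPP eyes, against 30.3, 42.6, 29.3 and 28.6 FPKM in DMSO eyes (-0.73, SE 0.21). The GABA transporter gene slc6a1b overlapped between the groups (-0.34).

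Of 19 tested acetylcholine genes 17 lay lower (median -0.20), 7 of them at an unadjusted p under 0.05 (36.8%). This count was 4 without IPP library 3, without IPP library 4 or without DMSO library 2. Without IPP libraries 3 and 4 it was 2, and the median was -0.15. The list's mean log2 level relative to the 8 libraries ran from -0.17 to 0.0024 in IPP eyes. DMSO library 3, at -0.077, lay within that range, and the other DMSO libraries lay above it. The list shares slc18a3a and chata with the amacrine and horizontal cell list. The nicotinic receptor subunit gene chrnb3b had 5.47, 3.86, 2.62 and 2.26 FPKM in IPP eyes, against 6.61, 7.70, 6.12 and 6.74 FPKM in DMSO eyes, with IPP library 1 high in its group (-0.91, SE 0.23). The choline acetyltransferase gene chata had 8.89, 8.17, 7.43 and 6.94 FPKM in IPP eyes, against 10.01, 10.9, 9.38 and 11.12 FPKM in DMSO eyes, without overlap (-0.38). The acetylcholinesterase gene ache, whose product is the target of organophosphate insecticides, had 13.7, 12.7, 10.5 and 11.5 FPKM in IPP eyes, against 17.1, 17.6, 13.3 and 15.2 FPKM in DMSO eyes (-0.37, SE 0.12, limma adjusted p = 0.352), with IPP library 1 above DMSO library 3. Dopamine and serotonin genes were mixed in direction, with 17 of 30 lower (median -0.044). At an unadjusted p under 0.05, 0 lay higher and 4 lower (13.3%). Among them the serotonin receptor gene htr1aa had 3.73, 4.12, 4.32 and 3.58 FPKM in IPP eyes, against 7.59, 7.25, 6.60 and 5.23 FPKM in DMSO eyes, without overlap (-0.68, SE 0.14, limma adjusted p = 0.274), and htr1b differed by -0.85 (SE 0.26). The dopamine transporter gene slc6a3 had 5.56, 4.33, 3.70 and 4.89 FPKM in IPP eyes, against 6.87, 6.80, 5.50 and 5.84 FPKM in DMSO eyes (-0.41).

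Genes of the release machinery lay lower in 30 of 45 cases (median -0.13), 15 of them at an unadjusted p under 0.05 (33.3%), or 9 without DMSO library 2. The list's mean log2 level relative to the 8 libraries was 0.034, 0.032, -0.13 and -0.10 in IPP eyes. It was 0.11, 0.13, -0.14 and 0.081 in DMSO eyes, so DMSO library 3 lay below all IPP libraries. The release list shares 6 genes with the mature neuron list. The complexin gene cplx2l, whose product regulates vesicle fusion, had 36.9, 29.5, 28.0 and 36.3 FPKM in IPP eyes, against 55.4, 63.9, 51.8 and 45.1 FPKM in DMSO eyes (-0.72, SE 0.13, limma adjusted p = 0.226). The synaptotagmin gene syt9b, for a calcium sensor of release, had 33.4, 28.2, 20.5 and 28.5 FPKM in IPP eyes, against 47.6, 53.1, 39.3 and 42.4 FPKM in DMSO eyes (-0.72, SE 0.15). The cadpsb gene, for a vesicle priming factor, differed by -0.45 (SE 0.098). In these 3 genes all IPP libraries lay below all DMSO libraries. Of 56 tested genes of stathmins and axon growth 37 lay lower (median -0.12), 12 of them at an unadjusted p under 0.05 (21.4%). This list shares 13 genes with the mature neuron list and 6 with the ganglion cell list, so it is not separate evidence. The abundant gene marcksl1b, for an actin-binding substrate of protein kinase C, had 552, 544, 546 and 520.4 FPKM in IPP eyes, against 725, 767, 732 and 586 FPKM in DMSO eyes (-0.37, SE 0.095).

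Potassium channel genes showed differences in both directions. Of 40 tested, 25 lay lower (median -0.11), and an unadjusted p under 0.05 was reached by 7 of these (17.5%) and by 4 that lay higher. The lower count was 3 without IPP library 3 or DMSO library 2 and 4 without DMSO library 1. Without IPP libraries 3 and 4 it was 2, and the median was -0.055. The list's mean log2 level relative to the 8 libraries was lowest in DMSO library 3 (-0.20), with IPP library 3 next (-0.17). The kcnip3b gene, for a calcium-binding partner of A-type channels (chromosome 10, 20653716 to 20706270), had 1.54, 1.31, 1.55 and 1.05 FPKM in IPP eyes, against 3.46, 4.96, 3.47 and 2.92 FPKM in DMSO eyes. The highest IPP library reached 1.55 FPKM and the lowest DMSO library stood at 2.92 FPKM (-1.16, SE 0.19, limma adjusted p = 0.189). Of 3 tested kcnip genes, looked up afterwards, 2 lay lower and 1 higher, kcnip2 at 0.77. An unadjusted p under 0.05 was reached by 1 in each direction. The A-type channel gene kcnd1 had 5.76, 6.34, 4.22 and 4.65 FPKM in IPP eyes, against 8.62, 9.36, 8.73 and 8.80 FPKM in DMSO eyes (-0.72, SE 0.14). The inward rectifier gene kcnj19b, named by its p and no member of the list, had 1.73, 1.91, 1.48 and 1.56 FPKM in IPP eyes, against 3.82, 3.53, 3.18 and 3.19 FPKM in DMSO eyes (-0.86, SE 0.14). The calcium-activated channel gene kcnn3 differed by -0.62 (SE 0.19). In the other direction, the leak channel gene kcnk1a had 1.09, 0.598, 1.58 and 0.918 FPKM in IPP eyes, against 0.117, 0.350, 0.113 and 0.515 FPKM in DMSO eyes, with levels close to the pseudocount of 0.5 (0.996, SE 0.27).

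Photoreceptor genes had medians near 0. Of 29 tested rod genes 16 lay lower and 13 higher (median -0.0083), with 0 at an unadjusted p under 0.05 in either direction. For rho the log2 fold change was -0.046 (SE 0.16, limma adjusted p = 0.930), and DMSO library 4 was the lowest and DMSO library 2 the highest of all. Of 34 cone genes 23 lay higher (median 0.069), 3 of them at an unadjusted p under 0.05 (8.82%). The ultraviolet opsin gene opn1sw1 had 7967, 7638, 7330.0 and 6082 FPKM in IPP eyes, against 7329, 6877, 7149 and 6520.1 FPKM in DMSO eyes (0.052, SE 0.12). The blue opsin gene opn1sw2 differed by 0.092 (SE 0.15), and the red opsin gene opn1lw2 by 0.070 (SE 0.18). The transducin genes gnat1 of rods and gnat2 of cones differed by 0.0089 (SE 0.11) and -0.029 (SE 0.084). The photoreceptor factor crx differed by -0.14 (SE 0.15). The groups overlapped in each of these genes. The cone genes with the smallest p were guca1e, a cyclase activator gene with 4.68, 4.55, 4.30 and 4.81 FPKM in IPP eyes, against 3.49, 2.43, 2.73 and 3.47 FPKM in DMSO eyes (0.54, SE 0.14), and the channel gene cnga3b (0.47, SE 0.14).

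Genes of photoreceptor structure and of the ribbon synapse included several long genes. Of 38 structure genes 21 lay higher (median 0.038), and of these 6 (15.8%) had an unadjusted p under 0.05, as did 0 of the lower ones. The polarity gene crb2a had 8.47, 6.68, 9.14 and 8.53 FPKM in IPP eyes, against 4.65, 4.13, 2.70 and 6.57 FPKM in DMSO eyes, without overlap (0.84, SE 0.22). The protocadherin gene pcdh15b differed by 0.68 (SE 0.20). In crb2a DMSO library 3 was the lowest and DMSO library 4 the highest of the DMSO eyes. The same order held for cacna1fa, the calcium channel gene of photoreceptor terminals, with 34.04, 33.0, 30.2 and 18.7 FPKM in IPP eyes, against 13.1, 11.8, 6.77 and 25.7 FPKM in DMSO eyes (1.11, SE 0.34), and IPP library 4 lay below DMSO library 4. Over the 1716 tested genes of 6 kb and longer, the mean log2 level relative to the 8 libraries was 0.015, 0.10, -0.016 and -0.016 in IPP eyes and 0.025, -0.031, -0.14 and 0.059 in DMSO eyes, so DMSO library 3 was the lowest there too. The part of this library difference in the values of the long genes was not tested. Of 29 ribbon synapse genes 16 lay higher and 13 lower (median 0.037), with 3 in each direction at an unadjusted p under 0.05, among them cacnb2b (0.34, SE 0.089) and snap25b (-0.26, SE 0.087).

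Genes of bipolar cells and Mueller glia lay nearer to the background than those of ganglion cells. Of 27 bipolar cell genes 16 lay lower (median -0.086), 3 of them at an unadjusted p under 0.05. The lower bipolar genes were irx5a (-0.52, SE 0.14), the G protein subunit gene gng13b (-0.24, SE 0.087) and isl1 (-0.25, SE 0.10), which the ganglion cell list and the amacrine and horizontal cell list hold too. Of 29 Mueller glia genes 15 lay lower and 14 higher (median -0.0050), with 2 (6.90%) and 3 (10.3%) at an unadjusted p under 0.05. The glial retinaldehyde-binding protein gene rlbp1a had 159, 134, 175 and 133 FPKM in IPP eyes, against 131, 157, 161 and 129 FPKM in DMSO eyes (0.056, SE 0.12), and gfap differed by -0.054 (SE 0.19). The caveola gene cavin1b differed by 0.55 (SE 0.14) and the glutamate transporter gene slc1a3b by 1.23 (SE 0.40). The slc1a3b gene was low, with 1.92, 6.95, 2.22 and 2.33 FPKM in IPP eyes, against 1.16, 0.332, 1.02 and 1.69 FPKM in DMSO eyes. In brains its mean was 133 FPKM with IPP and 129 FPKM with DMSO. IPP library 2, its highest, was also the highest eye library for genes of brain regions outside the eye (0.46). DMSO libraries 4 (0.25) and 3 (0.22) came next for those genes. The part of brain tissue in the slc1a3b values was not tested. Of 36 genes of retinal progenitors and the ciliary marginal zone, where the fish retina grows, 17 lay lower and 19 higher (median 0.024), 4 and 1 of them at an unadjusted p under 0.05.

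Pigment epithelium and melanin genes lay lower in 25 of 32 cases (median -0.20), 6 of them at an unadjusted p under 0.05 (18.8%), with 0 higher. The paralog rlbp1b, which belongs to the lists of pigment epithelium, Mueller glia and visual cycle, had 13.6, 18.5, 17.2 and 23.7 FPKM in IPP eyes, against 30.6, 25.2, 31.4 and 26.3 FPKM in DMSO eyes, without overlap (-0.64, SE 0.16, limma adjusted p = 0.303). The melanin enzyme genes tyrp1b and tyrp1a had, for tyrp1b, 125, 136, 112 and 183 FPKM in IPP eyes, against 208, 195, 209 and 156 FPKM in DMSO eyes (-0.48, SE 0.15) and, for tyrp1a, 17.9, 21.7, 16.2 and 21.5 FPKM in IPP eyes, against 24.5, 28.7, 25.5 and 22.01 FPKM in DMSO eyes (-0.38, SE 0.12). IPP library 4 was above DMSO library 4 in tyrp1b, and the groups did not overlap in tyrp1a. Of 38 visual cycle and retinoid genes 23 lay lower (median -0.098), 1 of them at an unadjusted p under 0.05. The isomerase gene rpe65a had 199, 304, 259 and 497 FPKM in IPP eyes, against 393, 408, 488 and 308 FPKM in DMSO eyes, with IPP library 4 the highest of all 8 (-0.41, SE 0.25). Of the 7 tested receptors of retinoic acid and retinoid X, 4 lay higher and 3 lower (median 0.020), and rxrba alone had an unadjusted p under 0.05 (0.52, SE 0.20).

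Lens genes lay slightly lower, and few had a small p. Of 49 crystallin genes 42 lay lower (median -0.14), but 2 lower (4.08%) and 1 higher had an unadjusted p under 0.05. Crystallins took 9.95%, 11.2%, 11.7% and 11.5% of the reads in IPP eyes, against 12.7%, 12.7%, 14.1% and 9.70% in DMSO eyes, with DMSO library 4 the lowest of all. The gamma crystallin gene crygm2d20 went the other way, with 439, 396, 410.1 and 455 FPKM in IPP eyes, against 306, 342, 371 and 298 FPKM in DMSO eyes (0.37, SE 0.092). The crygm2d genes are near-identical copies that can share reads, so the value of 1 copy is uncertain. Of 26 lens fibre membrane genes and regulators 16 lay lower (median -0.085), 1 of them at an unadjusted p under 0.05.

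Tissue around the retina differed between libraries as well. Of 49 tested skin and cornea genes 37 lay higher (median 0.27), 6 of them at an unadjusted p under 0.05 (12.2%), with sums of 3451 to 5093 FPKM in IPP eyes and 2959.8 to 4384 FPKM in DMSO eyes and epcam at 0 in all 8 libraries. The keratin gene krtt1c19e had 459.9, 429, 486 and 553 FPKM in IPP eyes, against 293, 255, 466 and 352 FPKM in DMSO eyes, overlapping at DMSO library 3 (0.53, SE 0.17). Of 60 cartilage and connective tissue genes 50 lay higher (median 0.17), 6 at an unadjusted p under 0.05, with sums of 956 to 1419 FPKM in IPP eyes and 779 to 1135 FPKM in DMSO eyes and col6a3 and snorc at 0. Of 39 muscle genes 31 lay lower (median -0.26), 4 at an unadjusted p under 0.05 (10.3%), with sums of 204 to 339.6 FPKM in IPP eyes and 286 to 527 FPKM in DMSO eyes. The fast muscle genes mylpfa, pvalb2 and pvalb3 were at 0, as was casq1a, while the copy mylpfb had 0.713, 0.542, 1.07 and 1.80 FPKM in IPP eyes, against 5.84, 2.86, 1.66 and 4.32 FPKM in DMSO eyes, overlapping at IPP library 4 and DMSO library 3 (-1.40, SE 0.36). Of 24 blood cell genes 16 lay higher (median 0.25), 4 at an unadjusted p under 0.05 (16.7%), with sums of 591 to 763 FPKM in IPP eyes and 422 to 741 FPKM in DMSO eyes and the adult globin genes hbaa1, hbba1 and hbba2 at 0. The part of these tissues in the values of the retinal lists was not tested. Whether a gene at 0, here or below, was silent or had reads that were not counted was not tested either. Vessel genes were balanced in direction, with 17 of 33 higher (median 0.0020). At an unadjusted p under 0.05, 3 vessel genes lay lower (9.09%) and 2 higher (6.06%). The groups did not overlap for 3 that lay lower (9.09%) and 0 that lay higher. Of 29 microglia and macrophage genes 18 lay higher (median 0.11), 1 of them at an unadjusted p under 0.05, and c1qc, coro1a and slc7a7 were at 0. Of 25 genes of brain regions outside the eye 16 lay lower (median -0.18), and of 11 myelin genes 7 lay higher (median 0.16).

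**Figure D4:**
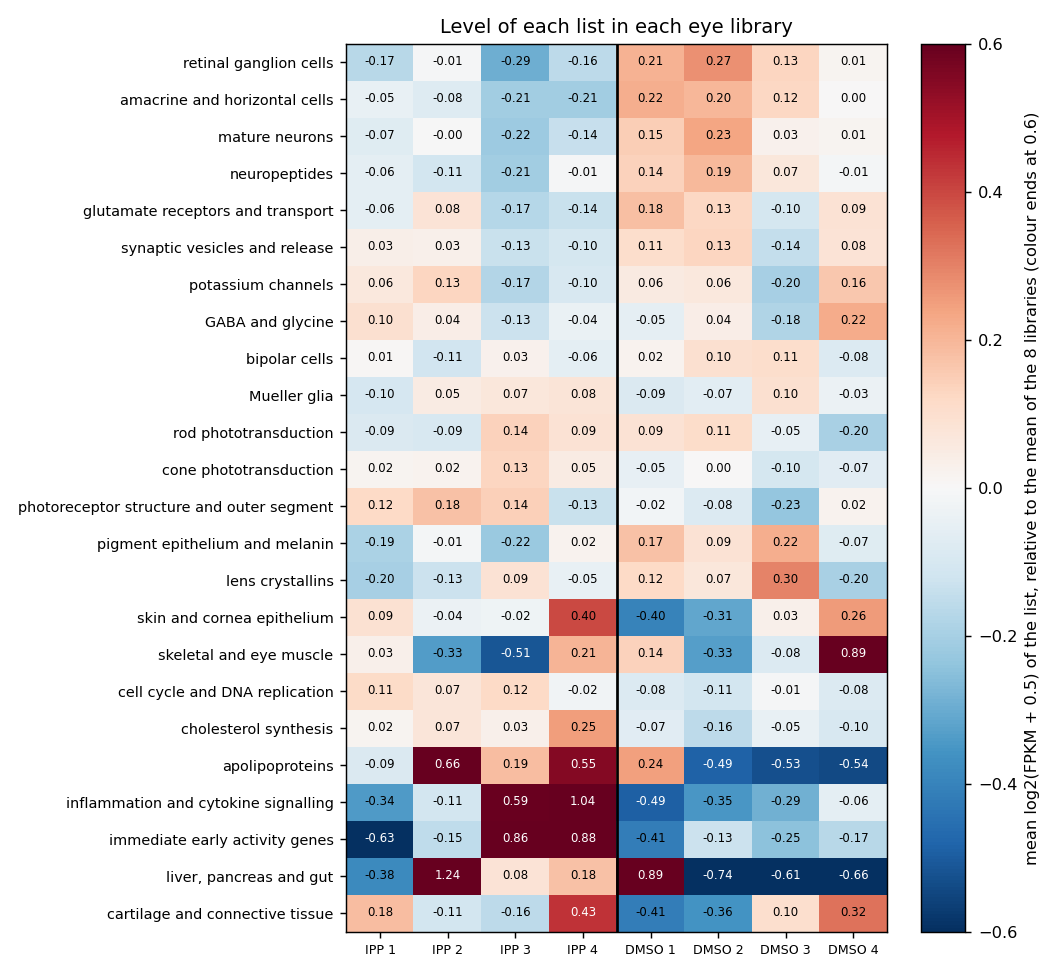
Mean log2(FPKM + 0.5) of the tested members of 24 gene lists in each eye library, relative to the mean of the 8 libraries, with the IPP libraries left of the black line and the DMSO libraries right of it. The amacrine and horizontal cell row is below 0 in all 4 IPP libraries, while the DMSO libraries reach 0.0032 to 0.22, the inflammation row is highest in IPP libraries 3 and 4 (0.59 and 1.04), and the liver, pancreas and gut row is highest in IPP library 2 (1.24) and DMSO library 1 (0.89).

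Among genes with a symbol, a mean of at least 1 FPKM and groups that did not overlap, 3 of the 5 with the largest changes toward higher values encode lipoprotein components. Of 26 apolipoprotein and lipoprotein receptor genes 16 lay higher (median 0.37), 8 of them at an unadjusted p under 0.05 (30.8%), against 2 lower. The gene apoa4b.2 (chromosome 16, 23947196 to 23948538) had 1.999, 12.2, 3.55 and 5.07 FPKM in IPP eyes, against 0.779, 0.777, 0.334 and 0.208 FPKM in DMSO eyes. All IPP libraries lay above all DMSO libraries, with IPP library 2 far above the others (2.38, SE 0.45, limma adjusted p = 0.240). In brains apoa4b.2 had a mean of 36.7 FPKM (SD 72.4) with IPP and 2.47 FPKM (SD 3.33) with DMSO, so it varied widely between libraries. The apolipoprotein B gene apobb.1 had 0.937, 4.96, 1.26 and 4.08 FPKM in IPP eyes, against 0.374, 0.0373, 0.0866 and 0.216 FPKM in DMSO eyes (2.08, SE 0.43). The apolipoprotein E gene apoea had 3.5003, 10.2, 4.98 and 6.78 FPKM in IPP eyes, against 3.495, 0.127, 0.613 and 0.561 FPKM in DMSO eyes (2.29, SE 0.52), and in it DMSO library 1 nearly reached the lowest IPP library. The apolipoprotein A-I gene apoa1a, a main product of larval liver, gut and yolk layer, had 8.33, 91.1, 23.5 and 63.9 FPKM in IPP eyes, against 17.5, 2.56, 0.857 and 3.64 FPKM in DMSO eyes, overlapping at IPP library 1 and DMSO library 1 (2.99, SE 0.86). The liver, pancreas and gut list shares 7 genes with the apolipoprotein list, among them apoa4b.2, apobb.1 and apoa1a, so the lists are not separate evidence. Of its 29 tested genes 23 lay higher (median 0.31), 7 of them at an unadjusted p under 0.05 (24.1%), with sums of 176 to 489 FPKM in IPP eyes and 139 to 403 FPKM in DMSO eyes. Over 65 of its genes, tested or not, the sums in brain libraries ran from 30.9 to 21019 FPKM. Its genes ctrb1, fabp1a and vtg2 were at 0, and the part of such tissue in the apolipoprotein values was not tested. The lipoprotein receptor gene vldlr lay lower, with 18.6, 24.2, 20.9 and 20.6 FPKM in IPP eyes, against 29.4, 30.8, 28.6 and 24.4 FPKM in DMSO eyes (-0.42, SE 0.11).

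The other genes with the smallest p among those higher were of mixed function. The phosphatase gene pptc7b, whose product acts in mitochondria, had 15.001, 15.01, 15.4 and 18.3 FPKM in IPP eyes, against 7.64, 7.08, 4.67 and 10.6 FPKM in DMSO eyes (1.08, SE 0.20, limma adjusted p = 0.240). The cytoskeletal crosslinker gene macf1b had 2.12, 2.196, 1.98 and 1.62 FPKM in IPP eyes, against 0.265, 0.132, 0.128 and 1.06 FPKM in DMSO eyes (1.57, SE 0.30). DMSO library 4 was the highest DMSO library in both. The gene pmepa1, a target and inhibitor of TGF-beta signalling, had 4.95, 3.74, 7.75 and 6.11 FPKM in IPP eyes, against 1.90, 1.18, 1.83 and 2.95 FPKM in DMSO eyes (1.32, SE 0.26). The glucose transporter gene slc2a1b had 18.9, 19.2, 17.8 and 27.3 FPKM in IPP eyes, against 13.4, 11.999, 10.4 and 13.5 FPKM in DMSO eyes (0.72, SE 0.15). The lipid transfer protein gene pitpnb (0.52, SE 0.10), the bHLH factor gene tcf3a (0.86, SE 0.19) and the brain fatty acid-binding protein gene fabp7b (0.60, SE 0.14) belonged to the same set. The related genes fndc7rs1, with 5.02, 5.997, 6.01 and 11.4 FPKM in IPP eyes, against 0.585, 0.389, 3.39 and 2.35 FPKM in DMSO eyes (2.01, SE 0.47), and fndc7rs3 (1.76, SE 0.46) lie close together on chromosome 2, from 45619949 to 45626763 and from 45636034 to 45639159. All 4 genes of this family, looked up afterwards, lay higher, between 1.04 and 2.01 on the log2 scale.

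Genes of lipid synthesis lay higher in most cases, with few at a small p. Of 35 cholesterol synthesis genes 28 lay higher (median 0.13), 4 of them at an unadjusted p under 0.05 (11.4%). The squalene epoxidase gene sqlea had 5.35, 6.08, 6.43 and 8.27 FPKM in IPP eyes, against 3.35, 2.66, 4.96 and 3.06 FPKM in DMSO eyes, without overlap (0.83, SE 0.19, limma adjusted p = 0.303). The lipoprotein receptor gene ldlra had 7.05, 6.53, 8.88 and 23.0 FPKM in IPP eyes, against 4.43, 4.71, 4.64 and 4.80 FPKM in DMSO eyes, with IPP library 4 far above the other IPP libraries (1.02, SE 0.33). The fatty acid list, for synthesis and storage, held 31 tested genes, of which 22 lay higher (median 0.17), 5 at an unadjusted p under 0.05 (16.1%). The regulator gene srebf1 had 28.0, 22.9, 23.7 and 29.1 FPKM in IPP eyes, against 14.4, 12.97, 8.04 and 25.1 FPKM in DMSO eyes, where DMSO library 4 was within the IPP range (0.86, SE 0.27). The acyltransferase gene dgat1b differed by 0.40 (SE 0.16) and the fatty acid elongase gene elovl2 by 0.56 (SE 0.24). Of 46 PPAR and fatty acid oxidation genes 29 lay higher (median 0.070), 3 at an unadjusted p under 0.05 (6.52%), near the background share. The coactivator gene ppargc1a had 22.4, 20.04, 16.03 and 17.8 FPKM in IPP eyes, against 12.04, 12.3, 8.66 and 15.97 FPKM in DMSO eyes (0.64, SE 0.18), the receptor gene pparda differed by 0.68 (SE 0.23), and the thioesterase gene acot8 lay lower (-0.59, SE 0.18).

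Cell cycle genes lay slightly higher. Of 72 tested members 64 lay higher and 8 lower, with a median of 0.14, and 6 (8.33%) had an unadjusted p under 0.05. The groups did not overlap for 6 that lay higher. The regulator gene e2f1 had 6.42, 5.64, 6.40 and 4.495 FPKM in IPP eyes, against 3.58, 3.87, 2.52 and 4.19 FPKM in DMSO eyes (0.64, SE 0.17). The condensin gene ncapd2 had 11.5, 11.6, 11.2 and 9.71 FPKM in IPP eyes, against 8.49, 8.08, 8.55 and 9.31 FPKM in DMSO eyes (0.33), and the topoisomerase gene top2a differed by 0.26 (SE 0.090) and the kinesin gene kif4 by 0.44 (SE 0.14). The median was smaller in size than those of the ganglion cell, amacrine and horizontal cell and mature neuron lists. It was about as far from 0 as that of the release machinery (-0.13). IPP library 4 was the lowest IPP library in e2f1, ncapd2 and top2a.

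Genes of the usual responses to chemicals lay close to the background. Of 20 aryl hydrocarbon receptor genes 12 lay lower (median -0.086), 1 of them at an unadjusted p under 0.05. The enzyme gene cyp1a, a standard marker of receptor activation, had 1.601, 0.667, 0.961 and 2.60 FPKM in IPP eyes, against 1.51, 1.505, 1.85 and 2.21 FPKM in DMSO eyes, with the groups overlapping (-0.30, SE 0.29, limma adjusted p = 0.723). Of 29 xenobiotic metabolism genes 18 lay lower (median -0.018), with 1 lower at an unadjusted p under 0.05. Of 47 oxidative stress and Nrf2 genes 26 lay lower and 21 higher (median -0.013), and 0 of the lower and 2 of the higher genes had an unadjusted p under 0.05. For 53 heat shock and chaperone genes the median was 0.033, with 1 at an unadjusted p under 0.05, and for 36 p53 target genes it was 0.068, with 1 in each direction. Of 16 thyroid hormone genes 10 lay higher (median 0.043), and 0 had an unadjusted p under 0.05. The housekeeping lists were near 0 too, with medians of -0.023 for 79 ribosomal protein genes, -0.025 for 78 nuclear genes of oxidative phosphorylation, 0.046 for the 13 genes of the mitochondrial genome and -0.079 for 40 glycolysis genes. Of 41 clock genes 27 lay higher (median 0.10), 2 of them at an unadjusted p under 0.05.

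Activity and inflammation genes were high in IPP libraries 3 and 4. Of 51 immediate early activity genes 40 lay higher (median 0.48), 7 of them at an unadjusted p under 0.05 (13.7%), against 3 lower. The list level relative to the 8 libraries was -0.63, -0.15, 0.86 and 0.88 in IPP eyes and -0.41, -0.13, -0.25 and -0.17 in DMSO eyes. The immediate early gene fosab had 32.9, 127, 535 and 389 FPKM in IPP eyes, against 46.9, 121, 96.8 and 104 FPKM in DMSO eyes, so IPP library 1 was the lowest and library 3 the highest of all 8 (0.98, SE 0.75, limma adjusted p = 0.644). Without IPP libraries 3 and 4 the median of this list was -0.17, and fosab differed by -0.43. The early gene fosaa had 9.55, 10.4, 16.9 and 36.6 FPKM in IPP eyes, against 7.09, 8.46, 6.56 and 7.51 FPKM in DMSO eyes, and here all IPP libraries lay above all DMSO libraries (1.05, SE 0.35). Of 42 inflammation and cytokine genes 33 lay higher (median 0.42), 12 of them at an unadjusted p under 0.05 (28.6%), with 0 lower. The median of this list was 0.0079 without IPP libraries 3 and 4. The cytokine feedback gene socs2 had 44.5, 49.1, 77.0 and 97.7 FPKM in IPP eyes, against 34.5, 19.02, 17.5 and 34.5 FPKM in DMSO eyes, with the DMSO libraries below all IPP libraries (1.33, SE 0.30, limma adjusted p = 0.303). The related gene cish had 24.6, 45.5, 87.7 and 112 FPKM in IPP eyes, against 28.4, 20.7, 28.1 and 26.2 FPKM in DMSO eyes, with IPP library 1 inside the DMSO range (1.15, SE 0.40). The adaptor gene myd88 had 4.66, 5.41, 10.9 and 12.96 FPKM in IPP eyes, against 2.53, 3.81, 4.81 and 3.43 FPKM in DMSO eyes, overlapping at IPP library 1 and DMSO library 3 (1.03, SE 0.32).

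The same exposure was then read in brains, which are in a separate table. In brains 0 of 17533 genes were called by limma (0%), with 273 genes higher (1.56%) and 239 lower (1.36%) at an unadjusted p under 0.05. The difference of the IPP effect between eyes and brains was tested over 15856 genes as an interaction in limma, and 0 passed, with a smallest adjusted p of 0.972. At an unadjusted p under 0.05, the eye effect was below the brain effect for 413 genes (2.60%) and above it for 227 (1.43%). Among the 413 were 11 of 52 mature neuron genes and 9 of 37 genes of glutamate receptors and transport. The ganglion cell list and the amacrine and horizontal cell list each had 6 of 38. The eye effect was above the brain effect for 2 mature neuron genes and 2 amacrine and horizontal cell genes. It was above for 0 glutamate genes and 0 ganglion cell genes. Some of these lists share genes. The medians in brains were -0.060 for ganglion cell genes, -0.075 for amacrine and horizontal cell genes and -0.091 for mature neuron genes. Other lists had brain medians about as far from 0 as in eyes, with 0.46 for immediate early genes, 0.45 for inflammation, 0.26 for skin and cornea, 0.16 for cartilage and connective tissue and 0.37 for blood cells. At an unadjusted p under 0.05 in brains, 5 blood cell genes, 3 immediate early genes and 2 inflammation genes lay higher. Lower at that p in brains were 4 of 38 ganglion cell genes and 4 of 38 amacrine and horizontal cell genes, with 0 higher in either list. The same held for 3 of 44 synaptic vesicle genes and 1 of 52 mature neuron genes, with 1 higher in each list. The share of lower genes over all brain genes was 1.36%. The genes below were picked for their values in eyes, so their distance from brains is partly set by that choice. For npy the log2 fold change was -1.07 in eyes and 0.24 in brains, a difference of -1.31 (SE 0.24, limma unadjusted p = 6.13e-05). For kcnj19b the values were -0.86 in eyes and -0.11 in brains, a difference of -0.75 (SE 0.17). For nrgna they were -0.63 in eyes and 0.053 in brains, a difference of -0.68 (SE 0.16). The gene pou4f1 stood at -0.83 in eyes and -0.34 in brains, a difference of -0.49 (SE 0.21), and isl2b at -0.80 in eyes and -0.10 in brains (-0.69, SE 0.43). The ganglion cell genes pou4f2 and pou4f3 had smaller differences between eyes and brains, of -0.18 and -0.20. None of these differences passed the adjustment by limma (adjusted p of at least 0.972). This fit took eyes and brains of the same number as independent. With them paired, npy and kcnj19b each had a limma adjusted p of 0.429.

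**Figure D5:**
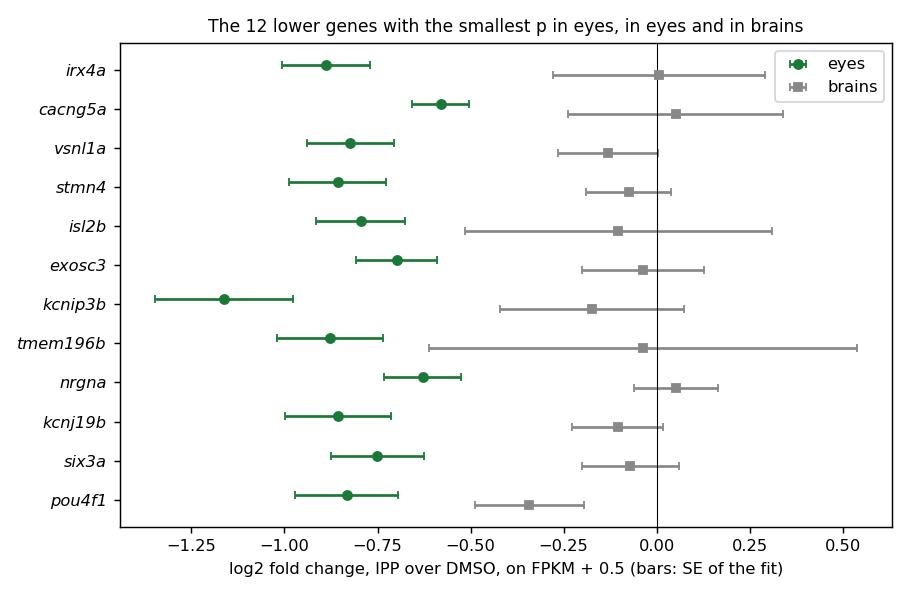
Log2 fold change of IPP over DMSO with its SE for the 12 lower genes with the smallest p in eyes, in eyes (circles) and in brains (squares). The eye values lie between -1.16 and -0.58 and the brain values between -0.34 and 0.053, and the genes were chosen by their eye values.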

How the data were processed

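RNA sequencing libraries of dissected eyes and brains (4 groups of 4 libraries) were read from the authors' deposited tables, which give FPKM per gene with gene lengths and coordinates. The submitters' processing notes name featureCounts 1.5.0-p3 and HISAT2 2.0.5. The genome build, the annotation and how FPKM was calculated were not given in the sources used here. Per the labels' protocols both strand-specific and non-specific preparations are described, so the use of strand is unclear, and 4642 tested genes overlap another gene. Reads were rebuilt from FPKM and length for depth (10.6 M to 12.5 M per eye library), for shares of reads and for limma-voom. They also served a scaling without lens crystallins and the simulated data. FPKM per library includes the counting error of that depth, which is largest for genes near 0.5 FPKM.

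Genes averaging 0.5 FPKM or more across the 8 eye libraries were fitted on log2(FPKM + 0.5) by limma (version 3.58.1, R 4.3.3, trended eBayes, two-sided), with Benjamini-Hochberg adjustment over all 17096 genes and a threshold of 0.05. Fold changes of low genes are understated on this scale. Libraries were grouped by their labelled tissue and treatment, and library numbers were not used to pair the eye groups in the main fit. The eye and brain effects were compared by an interaction term. The limma script was tested on simulated data.

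Gene lists are described by counts and medians, with no test. Symbols given to more than 1 identifier count once per identifier. Genes were named by rule: per direction the 12 smallest p and the 5 largest changes among genes with an assigned symbol, a mean of at least 1 FPKM and groups that did not overlap, up to 4 members per list with the smallest p, and a set of defining eye genes. Exceptions are marked, and 2 named genes are not reported here. The genes, lists and alternatives were chosen with earlier results of these data known.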

Additional observations from a re-analysis of the deposited data

Results flagged for a closer look

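Among 342 sets of 4 libraries (1 named gene or 1 list level in 1 group), 28 held a library far from the other 3 by Dixon's criterion at the 95% level. Chance flags about 1 in 20 groups. DMSO library 4 was the distant library for irx4a (19.5 FPKM, others 24.8 to 25.4), stmn4 (31.4, others 38.2 to 38.6), grm4 (6.69, others 9.27 to 9.31), irx5a (17.6, others 24.2 to 25.03), gfap (2.91, others 2.39 to 2.47) and macf1b (1.06, others 0.128 to 0.265). In irx4a, stmn4, grm4, irx5a and macf1b this library lay toward the IPP eyes.

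IPP library 4 stood apart for rho (4959 FPKM, others 4165 to 4243), cacng2a (12.04, others 7.85 to 8.03), pptc7b (18.3, others 15.001 to 15.4), slc2a1b (27.3, others 17.8 to 19.2), pitpnb (11.5, others 10.1 to 10.4), fndc7rs1 (11.4, others 5.02 to 6.01) and ldlra (23.0, others 6.53 to 8.88). IPP library 2 stood apart for slc1a3b (6.95, others 1.92 to 2.33) and fabp7b (14.9, others 10.8 to 11.2), and IPP library 3 for gria4a (10.9, others 14.1 to 14.4). DMSO library 1 stood apart for apoa1a (17.5 FPKM, others 0.857 to 3.64) and apoea (3.495, others 0.127 to 0.613). DMSO library 2 did so for arhgef9a (42.6, others 28.6 to 30.3) and acot8 (4.04, others 2.44 to 2.66), and DMSO library 3 for opn1sw2 (282.7, others 238.4 to 243.1).

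Of the list levels (mean log2 value relative to the 8 eye libraries), DMSO library 1 stood apart for liver, pancreas and gut genes (0.89) and apolipoproteins (0.24). DMSO library 3 did so for synaptic vesicles and release (-0.14) and glycolysis (-0.14), DMSO library 4 for fatty acid synthesis and storage (0.057), IPP library 1 for Mueller glia (-0.10) and IPP library 4 for the visual cycle (0.099).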

How the results depend on the processing

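The 8 eye libraries limit each call, since 1 library moves the counts. By limma 0 genes were called in eyes with another pseudocount, filter, scaling or voom, with protein-coding genes only, with the replicate block and without IPP libraries 3 and 4. Leaving out 1 library gave 0 to 3 calls, with dre-mir-146a called without IPP library 1 (3.47, adjusted p = 0.0383) and irx4a, LO017802.1 and macf1b without DMSO library 4, genes listed because they were called. Leaving out DMSO 4 and IPP 4, a choice made with these values known, gave 40. The causes of the differences in this part were not tested. Leaving out 1 library gave 567 to 1648 genes higher at an unadjusted p under 0.05, 768 to 1426 apart and lower and 528 to 1430 apart and higher, and fewer libraries make a gap easier to reach. Among members lower at that p it gave 9 to 15 for synaptic vesicles, 3 to 8 for potassium channels and 4 to 6 for acetylcholine. The medians then ranged from -0.047 to 0.060 for endothelium, 0.048 to 0.16 for myelin and -0.32 to -0.15 for neuropeptides.

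Without DMSO 4 and IPP 4, 1737 genes were higher at that p, 2094 apart and lower and 2217 apart and higher, 4 acetylcholine members were lower, and the medians were -0.19 for the visual cycle, -0.099 for endothelium and -0.019 for PPAR. Without IPP libraries 3 and 4, 1658 genes were apart and lower and 1625 apart and higher. That p is harder to reach with fewer libraries. The members lower at it were then 13 for amacrine and horizontal cells, 15 for mature neurons and 9 for glutamate. For potassium channels and acetylcholine there were 2 each. The medians were then -0.098 for progenitors, -0.058 for endothelium, 0.037 for myelin, -0.17 for immediate early genes, -0.072 for p53 targets, -0.14 for Nrf2 and -0.12 for the clock. With no filter the medians were 0.051 for myelin and -0.023 for glutamate, and with a filter at 2 FPKM -0.30 for glutamate, -0.34 for acetylcholine and -0.26 for potassium channels.

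Genes near 0 changed sign, and so did fosab, which was not near 0. Over the fits that leave out 1 library the values reached -0.20 for rho, 0.40 for rbpms, 0.22 for opn1sw2, 0.23 for opn1lw2, 0.090 for gnat1, -0.067 for gnat2 and 0.11 for rlbp1a on the other side. The rho value was 0.055 under quantile normalization, 0.042 without DMSO 2 and 0.0057 without DMSO 3. The rbpms value was -0.17 without IPP 1 and -0.031 without DMSO 4 and IPP 4. Without IPP 3, opn1sw2 was at -0.019, opn1lw2 at -0.072, gnat1 at -0.046, rlbp1a at -0.020 and gfap at 0.022. The gnat1 value was -0.0094 without DMSO 1, -0.075 without DMSO 4, -0.079 without IPP 3 and 4, and -0.079 without DMSO 4 and IPP 4. The gnat2 value was 0.041 under quantile normalization and 0.0065 without IPP 4. The gfap value was 0.067 without IPP 4, 0.0013 without DMSO 4, 0.24 without IPP 3 and 4, and 0.12 without DMSO 4 and IPP 4. The fosab value was -0.43 without IPP 3 and 4.

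With the replicate block 1737 genes had an unadjusted p under 0.05 in eyes, against 1886 without it, and 0 were called. Same-numbered IPP and DMSO eyes had correlations of -0.088 to 0.039 in their deviations from the group means. This showed no pairing by number, which so few pairs cannot settle. For the difference between eyes and brains the replicate block gave 1005 genes at an unadjusted p under 0.05, against 640 without it, and 0 called. Same-numbered eyes and brains correlated at 0.21 to 0.38 for IPP and at -0.14 to 0.44 for DMSO. For each IPP eye library and for DMSO eye libraries 1 and 4, the brain of the same number correlated best within its treatment.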
